A study of Homo sapiens with 24 samples.

Results

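ACAT1 and 5 genes related to it by chemistry or by position (ACAT2, HADHA, HADHB, OXCT1 and NPAT) were followed over 24 arrays of MCF10A cells. They are 6 of the 18417 genes that the array measured with a probe set carrying a single gene symbol. Each was listed by name, with earlier results of these data known, and ACAT1 was chosen for its own values. Each had 1 such probe set, so every member was measured and none was lost to a filter. MCF10A is an established, non-tumorigenic human breast epithelial line. The cells carried 1 of 3 siRNA oligonucleotides, introduced with Oligofectamine. In the groups called si-miR-20a the target was hsa-miR-20a, in those called si-miR-671 it was hsa-miR-671-5p, and the control oligonucleotide had no target. Affymetrix Human Gene 1.0 ST arrays were run on RNA from each transfection before EGF (0 min) and 30, 60 and 120 min into it, with 2 arrays for each of the 12 combinations. The growth medium itself held EGF, insulin, hydrocortisone, cholera toxin and horse serum, and no starvation step before EGF was given in the sources used here. No group without transfection and no second oligonucleotide per miRNA was analysed here. The replicates are biological according to the labels, but nothing says whether they came from separate transfections, so p-values measure the spread between these arrays, which may be partly technical. Mature miRNAs were not among the values used here, so the miRNAs that the oligonucleotides were directed at were not checked.

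ACAT1 is the mitochondrial acetoacetyl-CoA thiolase, which splits acetoacetyl-CoA and 2-methylacetoacetyl-CoA and so serves both the use of ketone bodies and the last step of isoleucine breakdown. OXCT1 stands just before it in ketone use, handing CoA from succinyl-CoA to acetoacetate. HADHA and HADHB are the alpha and beta subunits of the mitochondrial trifunctional protein, which carries out the last steps of long-chain fatty acid beta-oxidation; the thiolase activity lies in HADHB. ACAT2 is the cytosolic thiolase, which joins acetyl-CoA units at the entry to the mevalonate pathway that makes cholesterol. NPAT is no thiolase: it is a substrate of cyclin E and CDK2 that activates replication-dependent histone genes, and it was included because its gene lies beside ACAT1.

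The sequences of both targeted miRNAs are given because their seeds, the bases 2 to 8 that pair with target transcripts, are the part by which a miRNA is grouped; the seeds are in capitals. The RefSeq mature sequences, placed on GRCh38.p14, are at chr13:91351072-91351094 on the + strand for miR-20a and at chr7:151238449-151238471 on the + strand for miR-671. The seeds differ.
hsa-miR-20a-5p: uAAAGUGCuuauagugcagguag
hsa-miR-671-5p: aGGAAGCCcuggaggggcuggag

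Whether ACAT1 and NPAT share a start region was read from the RefSeq promoter windows of GRCh38.p14, which run from 250 bases before to 50 bases after each start. They did not share one. The first ACAT1 window is chr11:108121317-108121616 on the + strand and the NPAT window chr11:108222589-108222888 on the − strand, 100972 bases apart, while the genes are direct neighbours in the order CUL5, ACAT1, NPAT, ATM. Both windows are shown because their starts are compared. Capitals mark the CCAAT box (CCAAT) and the GC box (GGGCGG), searched on either strand with overlapping matches counted.
ACAT1: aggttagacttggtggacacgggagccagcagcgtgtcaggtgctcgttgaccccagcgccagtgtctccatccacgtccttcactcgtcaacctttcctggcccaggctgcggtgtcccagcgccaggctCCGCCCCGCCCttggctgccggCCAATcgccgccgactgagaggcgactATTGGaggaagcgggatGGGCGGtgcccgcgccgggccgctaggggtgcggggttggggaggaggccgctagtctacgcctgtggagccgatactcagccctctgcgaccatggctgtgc
NPAT: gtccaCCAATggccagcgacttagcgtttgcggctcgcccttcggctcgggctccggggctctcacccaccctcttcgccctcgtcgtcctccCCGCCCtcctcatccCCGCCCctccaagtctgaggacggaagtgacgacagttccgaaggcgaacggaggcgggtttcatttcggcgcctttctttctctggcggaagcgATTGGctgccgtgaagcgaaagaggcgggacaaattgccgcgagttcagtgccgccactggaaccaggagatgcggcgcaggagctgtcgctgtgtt

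This first ACAT1 window held 2 CCAAT and 3 GGGCGG matches, and the NPAT window 2 of each. A second ACAT1 window in RefSeq, chr11:108121546-108121845 on the + strand, held 0 of either. CCAAT was present in 34.6% and GGGCGG in 44.9% of all 35116 promoter windows of this length. The full cAMP response element TGACGTCA (1.85% of windows) and the E2F-type motif TTTNNCGC (6.89%) matched in none of these 3 windows. The gene that starts beside NPAT is ATM, the DNA damage kinase, on the opposite strand and 429 bases away. The ATM window, chr11:108222817-108223116 on the + strand, overlaps that of NPAT by 72 bases, shown as read on the + strand at chr11:108222817-108222888 because both windows hold it; it lies between the 2 starts.
NPAT and ATM: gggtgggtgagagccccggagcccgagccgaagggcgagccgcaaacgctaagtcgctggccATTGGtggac

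A second divergent pair lies among the members. The windows of HADHA (chr2:26244583-26244882, − strand) and HADHB (chr2:26244689-26244988, + strand) share 194 bases, given as read on the + strand at chr2:26244689-26244882. The starts themselves are 307 bases apart, and the shared stretch lies between them, upstream of both subunits of the trifunctional protein; it is shown for that reason.
HADHA and HADHB: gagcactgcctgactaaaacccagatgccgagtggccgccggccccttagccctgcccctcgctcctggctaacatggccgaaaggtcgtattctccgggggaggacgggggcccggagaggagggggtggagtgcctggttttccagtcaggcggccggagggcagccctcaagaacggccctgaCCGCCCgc

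The first OXCT1 window, chr5:41870376-41870675 on the − strand, held 3 GGGCGG and no CCAAT matches. A match describes letters in a window and nothing about a factor.

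The deposited values are log2 levels, and a difference of 1 is a change of 2-fold. A level was compared only with other levels of the same probe set. The array medians lay between 6.56 and 6.57. Replicate arrays correlated at 0.973 to 0.992. The basal epithelial markers measured (KRT5, KRT14, ITGB4 and LAMB3) had means of 10.5 to 12.7, while 1 of 6 fibroblast markers and 1 of 6 blood or endothelial markers lay above the median probe set. Of the luminal epithelial markers 2 of 6 lay above it, KRT8 at 10.8 and KRT18 at 11.2. KRT19, ESR1, GATA3 and PGR had means of 4.81 to 7.18. Summed as a mean per array, the fibroblast list ran from 5.79 to 6.34 and the blood and endothelial list from 5.63 to 6.21. The si-miR-671 arrays fell into parts. At 0 and 30 min 546 probe sets differed from control, 2.81% of the 19460 tested, and at 60 and 120 min 2999 did, 15.4%. Against si-miR-20a the order was the opposite, with 1461 (7.51%) and 219 (1.13%). Of the 4 later si-miR-671 arrays, 3 lay nearer to the si-miR-20a mean of their time than to the control mean, and 120 min replicate 2 did not. For the members, differences of si-miR-671 from control are therefore given for its earlier and later times as well, and EGF differences also without those arrays.

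ACAT1 was at either of 2 levels on every array. Under control its log2 levels were 10.14 and 10.25 at 0 min, 10.18 and 10.12 at 30 min, 10.24 and 10.32 at 60 min and 10.09 on both arrays at 120 min. Under si-miR-20a they were 9.34 and 9.15, 9.20 and 9.38, 9.37 and 9.30, and 9.28 and 9.38 at the same times. All 8 si-miR-20a arrays lay below all 8 control arrays. Under si-miR-671 the levels were 10.18 and 10.19 at 0 min and 10.16 and 10.14 at 30 min, in the range of control, then 9.45 and 9.29 at 60 min and 9.22 and 9.27 at 120 min. The 4 later arrays lay near those of si-miR-20a, and the higher of the 60 min pair was above all of them. Between the upper and the lower levels the gap of group means was 0.72, against a pooled SD between replicates of 0.07 (12 groups of 2) and a largest gap between replicates of 0.19.

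**Figure D1:**
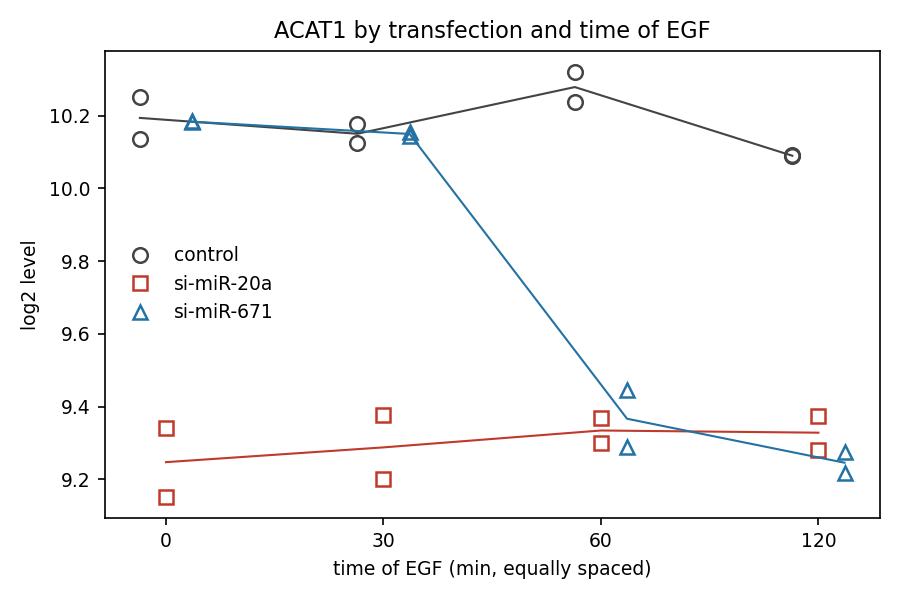
Log2 level of ACAT1 on each of the 24 arrays (symbols) and the mean of each pair (lines) against the time of EGF, set at equal steps, with circles for control, squares for si-miR-20a and triangles for si-miR-671. The control arrays sit between 10.09 and 10.32 and the si-miR-20a arrays between 9.15 and 9.38, and si-miR-671 passes from the upper to the lower level between 30 and 60 min.

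In order of mean level the 12 groups ran from control at 60 min (10.28), control at 0 min (10.19), si-miR-671 at 0 min (10.18) and control and si-miR-671 at 30 min (10.15 each) to control at 120 min (10.09). Then, after the gap, came si-miR-671 at 60 min (9.37), si-miR-20a at 60 and 120 min (9.33 each), 30 min (9.29) and 0 min (9.25), and si-miR-671 at 120 min (9.25). Neighbours in this order were at most 0.08 apart except across the gap, and most had overlapping arrays.

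ACAT1 entered this account with its pattern over the transfections known, and these values chose it, so its differences between transfections, and over time under si-miR-671, are a description and carry no test. Averaged over the 4 times, ACAT1 was lower, with a log2 difference of −0.88 ± 0.04 (model SE, 8 arrays against 8), under si-miR-20a than under control, or 54.4% of the control level. The difference was −0.95 at 0 min, −0.86 at 30 min, −0.94 at 60 min and −0.76 at 120 min, each ± 0.09. In the 24 fits that left out a single array it stayed between −0.90 and −0.85. Under si-miR-671 the difference from control was −0.01 ± 0.06 over 0 and 30 min and −0.88 ± 0.06 over 60 and 120 min, that is 99.6% and 54.4% of control. The average over all 4 times, −0.44, is the level of no array. Set directly against each other, si-miR-20a was lower than si-miR-671 over the earlier times (−0.90 ± 0.06) and differed by 0.03 ± 0.06 over the later ones (95% interval −0.11 to 0.16). Neither the number of cells behind a sample nor RNA per cell was measured, and in bulk RNA fewer cells of a kind and less RNA per cell cannot be told apart.

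EGF itself left ACAT1 nearly level where si-miR-671 was not involved. Over control and si-miR-20a together the log2 difference from 0 min was −0.00 at 30 min, 0.09 at 60 min and −0.01 at 120 min, each ± 0.06, with adjusted p of 1, 0.53 and 0.95 by limma with Benjamini-Hochberg adjustment over 19460 probe sets. The half-width of the 95% interval was 0.13, so changes within it were not detectable. Under control alone the differences were −0.04, 0.08 and −0.10, each ± 0.09. Under si-miR-671 they were −0.03 at 30 min, −0.82 at 60 min and −0.94 at 120 min, each ± 0.09. Averaged over the 3 transfections the differences at 60 and 120 min were −0.21 and −0.32, and both came from the si-miR-671 arrays.

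The other mitochondrial enzymes among the members moved little. HADHA, which holds the hydratase and dehydrogenase activities of the trifunctional protein, had levels of 10.48 to 10.61 under control (median 10.57) and 10.28 to 10.52 under si-miR-20a (median 10.43), with 8 arrays each. The ranges overlap, though the medians are apart. Its difference was −0.16 ± 0.04 (adjusted p = 0.013, limma), or 89.8% of control. HADHA was lower at all 4 times, with differences of −0.11, −0.21, −0.10 and −0.21 (± 0.08) at 0, 30, 60 and 120 min. With the earlier or the later times alone the difference had the same size, −0.16 and −0.15, and did not pass (adjusted p = 0.10 and 0.097, limma). HADHB, the thiolase subunit on the other side of the shared upstream stretch, ran from 10.13 to 10.52 under control and from 10.15 to 10.48 under si-miR-20a. Those ranges almost coincide, and its difference was −0.07 ± 0.06 (adjusted p = 0.42, limma; 95% interval −0.19 to 0.05). In parts, HADHB was at −0.16 ± 0.08 over 0 and 30 min, the size of HADHA there, and at 0.02 ± 0.08 over 60 and 120 min. Neither of these passed (adjusted p = 0.24 and 0.92, limma). So on average HADHA passed and HADHB did not, but the difference between these 2 genes was not tested. Under si-miR-671 neither passed in either part: HADHA was at −0.00 ± 0.06 over 0 and 30 min and −0.08 ± 0.06 over 60 and 120 min, and HADHB at −0.02 ± 0.08 and −0.04 ± 0.08 (smallest adjusted p 0.40, limma).

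OXCT1, which activates acetoacetate for ACAT1, was on average near control under si-miR-20a and somewhat higher under si-miR-671, without passing the test in either. Its arrays ran from 8.92 to 9.19 under control (median 9.10), from 8.95 to 9.25 under si-miR-20a (median 9.16) and from 9.11 to 9.30 under si-miR-671 (median 9.22). The 3 ranges overlap. The difference from control was 0.06 ± 0.04 for si-miR-20a (adjusted p = 0.34, limma) and 0.13 ± 0.04 for si-miR-671 (adjusted p = 0.065, limma). Unlike that of ACAT1, the si-miR-671 difference of OXCT1 was the same in both parts, 0.13 ± 0.06 over 0 and 30 min and 0.13 ± 0.06 over 60 and 120 min. The si-miR-20a difference was −0.02 ± 0.06 over the earlier times and 0.15 ± 0.06 over the later ones (adjusted p = 0.91 and 0.13, limma). At 120 min OXCT1 was 0.25 ± 0.09 higher under si-miR-20a and 0.24 ± 0.09 higher under si-miR-671 than under control, where the pair at that time was the lowest of its 12; neither passed (adjusted p = 0.089 and 0.15, limma), and both comparisons share those control arrays.

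ACAT2, the cytosolic thiolase, ran from 8.42 to 8.81 under control (median 8.74), from 8.45 to 8.74 under si-miR-20a (median 8.62) and from 8.45 to 8.85 under si-miR-671 (median 8.70). The groups overlap almost wholly. Its differences from control were −0.10 ± 0.06 (adjusted p = 0.31, limma) and −0.02 ± 0.06 (adjusted p = 0.90, limma). The latter was 0.06 ± 0.09 over 0 and 30 min and −0.09 ± 0.09 over 60 and 120 min, and neither passed (adjusted p = 0.87 and 0.55, limma). The 95% interval for si-miR-20a was −0.23 to 0.04. Whether the differences of ACAT2 and ACAT1 differ was not tested.

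NPAT went the other way from its neighbour. Its control arrays ran from 7.16 to 7.64 (median 7.42) and its si-miR-20a arrays from 7.53 to 7.84 (median 7.66), with an overlap. Under si-miR-671 they ran from 7.29 to 7.65 (median 7.57). The si-miR-20a difference was 0.27 ± 0.08 (adjusted p = 0.020, limma; 1.21-fold), with single times at 0.38, 0.17, 0.23 and 0.30 (± 0.16). NPAT had the widest replicate spread of the members (pooled SD 0.16), and this call rested on single arrays: it was lost without control 0 min replicate 2 (adjusted p = 0.054), control 30 min replicate 2 (0.051), control 60 min replicate 1 (0.053) or si-miR-20a 120 min replicate 2 (0.053), by limma in each case. The si-miR-671 difference was 0.11 ± 0.08 (adjusted p = 0.43, limma), made up of 0.19 ± 0.11 over 0 and 30 min and 0.04 ± 0.11 over 60 and 120 min (adjusted p = 0.53 and 0.88, limma). ATM, on the other side of the stretch between the starts, had differences of 0.05 ± 0.07 and 0.09 ± 0.07 from control for si-miR-20a and si-miR-671 (adjusted p = 0.66 and 0.50, limma). For si-miR-671 the earlier times gave 0.19 ± 0.10 and the later ones −0.01 ± 0.10 (adjusted p = 0.46 and 0.97, limma). Its control arrays ran from 8.24 to 8.84 and its si-miR-20a arrays from 8.35 to 8.93.

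**Figure D2:**
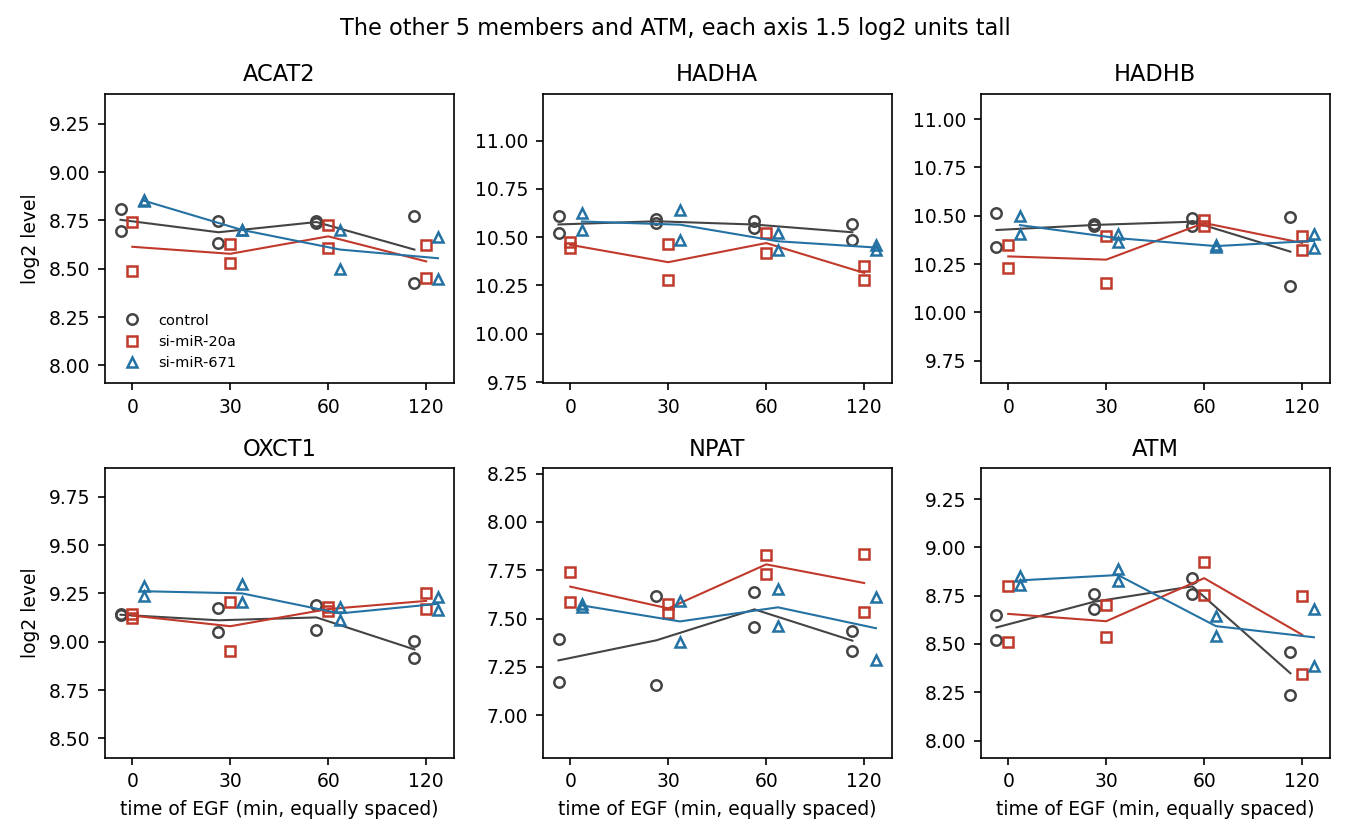
Log2 levels of ACAT2, HADHA, HADHB, OXCT1, NPAT and ATM on each array, drawn as for ACAT1 (circles control, squares si-miR-20a, triangles si-miR-671; lines join pair means; times at equal steps). Each vertical axis spans 1.5 log2 units, so that the panels can be compared: the transfections overlap in all 6, with si-miR-20a lower for HADHA and higher for NPAT.

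Counted together, 3 of the 6 members passed in si-miR-20a against control averaged over times (ACAT1 and HADHA lower, NPAT higher), where 24.5% of all probe sets did. Over 0 and 30 min alone and over 60 and 120 min alone only ACAT1 passed, against 12% and 16.7% of probe sets. ACAT1 was also the only member to pass in si-miR-671 against control on average (14.5% of probe sets) and over 60 and 120 min (15.4%), and in si-miR-20a against si-miR-671 on average (4.54%) and over 0 and 30 min (7.51%). None passed by limma in si-miR-671 against control over 0 and 30 min or in si-miR-20a against si-miR-671 over 60 and 120 min, and 0 had an unadjusted p under 0.05 in either. Since ACAT1 was chosen on these contrasts, its part in the counts is a description. Of all probe sets, 594 (3.05%) had all 8 si-miR-20a arrays below all 8 control arrays, and ACAT1 was the member among them.

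**Figure D3:**
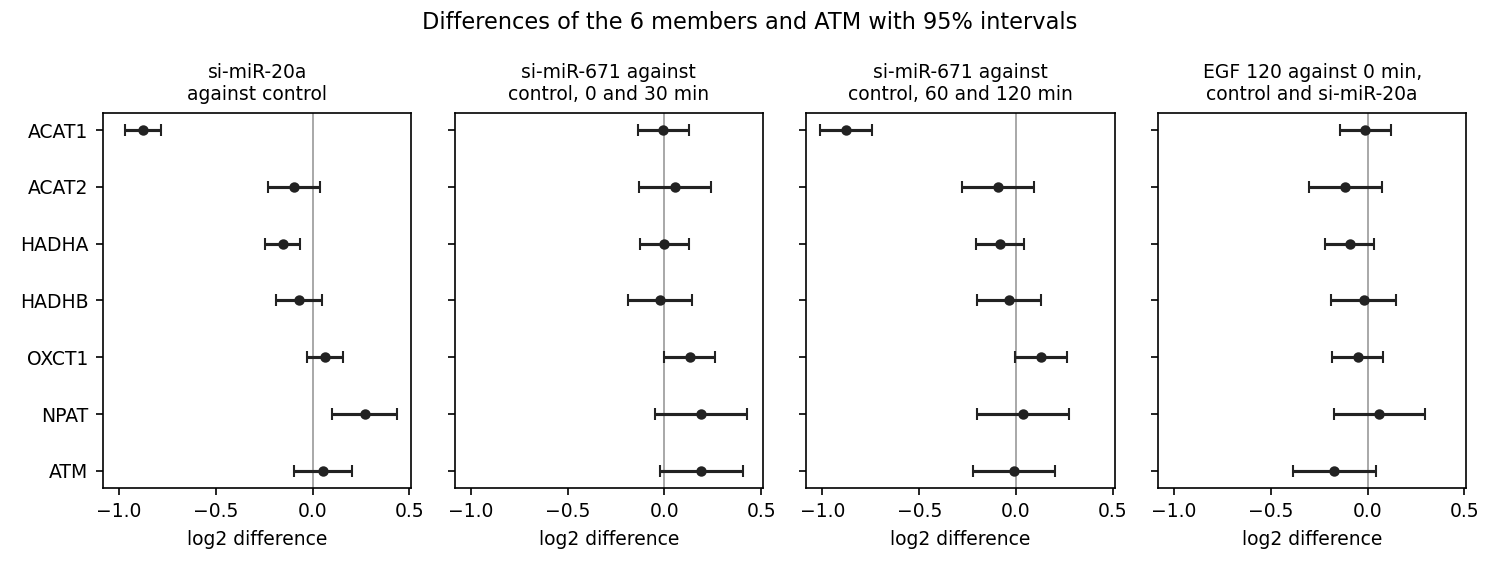
Log2 differences (points) with 95% intervals (bars) of the 6 members and ATM in 4 comparisons: si-miR-20a against control over all times, si-miR-671 against control over 0 and 30 min and over 60 and 120 min, and EGF 120 min against 0 min under control or si-miR-20a only. ACAT1 stands at −0.88 for si-miR-20a and for the later si-miR-671 times and at −0.01 in the other panels, while the remaining points lie between −0.17 and 0.27.

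EGF changed none of the other 5 members past the test. At 30 min their differences averaged over the 3 transfections ran from −0.08 (ACAT2) to −0.02 (HADHB), at 60 min from −0.07 (ACAT2) to 0.12 (NPAT) and at 120 min from −0.18 (ACAT2) to 0.00 (NPAT). The smallest adjusted p among them was 0.13, by limma. At 30 min 0 of 6 members passed and 0 had an unadjusted p under 0.05, with 0.766% of probe sets called. At 60 min (2.66% called) and at 120 min (13.4% called) ACAT1 alone passed, through the si-miR-671 arrays, which is a description. An unadjusted p under 0.05 was reached by 1 of 6 members at 60 min, ACAT1, and by 3 of 6 at 120 min, where ACAT2 (−0.18 ± 0.07) and HADHA (−0.11 ± 0.05) joined it and did not pass after adjustment (adjusted p = 0.13 and 0.17, limma). With control and si-miR-20a only, 0 of 6 passed at 30, 60 or 120 min, and 0 had an unadjusted p under 0.05, where 0.488%, 2.05% and 9.59% of probe sets were called. A change of the EGF response between transfection and control, tested by limma's moderated F over the 3 times, was called for 0.0154% of probe sets under si-miR-20a (0 of 6 members, and 0 at an unadjusted p under 0.05) and for 0.0514% under si-miR-671. Of the other 5 members 0 were among the latter and 0 had an unadjusted p under 0.05, and ACAT1, chosen on that time course, is given no test there.

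The genes whose levels ran most like those of ACAT1 were named by Pearson correlation over the 24 arrays, as a description; the arrays share groups and processing. They were DCPH1 (r = 0.98), PSMA6 (0.97), a subunit of the proteasome core, UGP2 (0.96), which makes UDP-glucose, TMEM242 (0.95) and ASPH (0.95), an aspartyl and asparaginyl hydroxylase. With each value taken relative to the mean of its time, GALNT1 (0.97), which starts O-linked glycosylation, and SMARCA1 (0.96), a chromatin remodelling ATPase, joined DCPH1, PSMA6 and ASPH. DCPH1 lay between 9.07 and 9.36 under control, between 8.46 and 8.78 under si-miR-20a, between 9.20 and 9.36 on the earlier si-miR-671 arrays and between 8.55 and 8.61 on the later ones. UGP2 lay at 9.30 to 9.73, 8.69 to 9.10, 9.42 to 9.55 and 8.68 to 8.93 in the same order. In both genes the earlier si-miR-671 arrays were with control and the later ones with si-miR-20a, as for ACAT1. GALNT1 differed in that its earlier si-miR-671 arrays (9.36 to 9.54) reached from below to within the control range (9.52 to 9.70). Among the members HADHA was the most like ACAT1 (r = 0.74, rank 895), then ACAT2 (0.59), HADHB (0.42), OXCT1 (−0.04) and NPAT (−0.44).

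**Figure D4:**
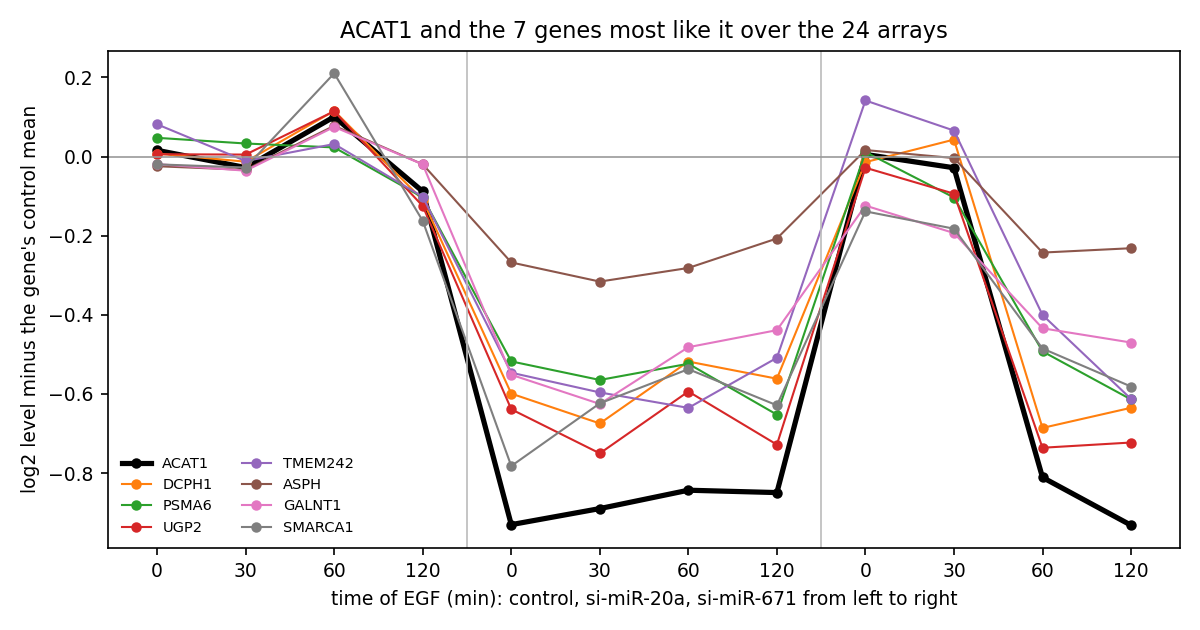
Mean log2 level of ACAT1 (thick line) and of the 7 genes named as most like it in each of the 12 groups, minus that gene's mean over the control arrays, control standing at the left, si-miR-20a in the middle and si-miR-671 at the right, with the time of EGF in min within each. All 8 lines are low throughout si-miR-20a and fall between 30 and 60 min of si-miR-671; ACAT1 falls the furthest.

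The enzymes around the members were taken as lists by pathway. Their counts are descriptions, to be read against the share of all probe sets called in the same comparison. In the breakdown of isoleucine, valine and leucine, whose isoleucine branch passes through ACAT1, 9 of 22 genes fell and 2 rose under si-miR-20a against control, with a list median of −0.05 beside 0.01 over all probe sets (24.5% called). AUH, the methylglutaconyl-CoA hydratase of leucine breakdown, changed by −0.48 ± 0.05, and IVD, the isovaleryl-CoA dehydrogenase, by −0.46 ± 0.06. BCKDHA, a subunit of the branched-chain keto acid dehydrogenase, changed by −0.35 ± 0.04, and PCCB, a subunit of propionyl-CoA carboxylase, by −0.33 ± 0.05. The largest adjusted p of these 4 was 0.00026, by limma. Under si-miR-671, 1 of 22 passed over 0 and 30 min (BCKDHA, −0.26 ± 0.06, adjusted p = 0.040, limma), where 2.81% of all probe sets did, and 7 of 22 passed over 60 and 120 min, 6 of them lower, where 15.4% did. At those later times AUH was −0.47 ± 0.07, IVD −0.50 ± 0.09 and PCCA, the other subunit of the carboxylase, −0.45 ± 0.08, against −0.26 ± 0.07, −0.21 ± 0.09 and −0.00 ± 0.08 over 0 and 30 min, which did not pass.

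Of the ketone body enzymes analysed here, 2 of 4 fell under si-miR-20a and none rose, beside 24.5% of all probe sets called. AACS, which activates acetoacetate in the cytosol, changed by −0.23 ± 0.05 and BDH1, which interconverts acetoacetate and hydroxybutyrate, by −0.28 ± 0.08 (adjusted p = 0.0052 and 0.014, limma). Over 0 and 30 min alone 0 of the 4 passed by limma and 0 had an unadjusted p under 0.05, with AACS at −0.10 ± 0.08 and BDH1 at −0.23 ± 0.11. Over 60 and 120 min both passed, AACS at −0.37 ± 0.08 and BDH1 at −0.33 ± 0.11 (adjusted p = 0.0038 and 0.046, limma). Whether the earlier and later differences differ was not tested. Of the 2 other thiolases measured, ACAA2, which ends mitochondrial beta-oxidation of shorter chains, fell by 0.33 ± 0.05 (adjusted p = 0.00025, limma), and ACAA1, the peroxisomal thiolase, was at 0.05 ± 0.05 (adjusted p = 0.54, limma). Under si-miR-671 ACAA2 was at −0.08 ± 0.07 over 0 and 30 min (adjusted p = 0.73, limma) and lower over 60 and 120 min, at −0.32 ± 0.07 (adjusted p = 0.0078, limma).

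In mitochondrial fatty acid beta-oxidation 5 of 19 genes fell and 1 rose under si-miR-20a, with a list median of −0.11. Those 6 of 19 are near the 24.5% of all probe sets called in this comparison, so the count sets the list little apart. ACSL1 and ACSL4, which activate fatty acids with CoA, changed by −0.26 ± 0.04 and −0.24 ± 0.05, and CPT2, the inner carnitine palmitoyltransferase, by −0.29 ± 0.07. ETFDH, which passes electrons from beta-oxidation to ubiquinone, rose by 0.30 ± 0.04. The largest adjusted p of these 4 was 0.0081, by limma. ACSL1 was lower under si-miR-671 as well, at −0.33 ± 0.06 over 0 and 30 min and −0.46 ± 0.06 over 60 and 120 min, so that it was below control before ACAT1 was. In peroxisomal beta-oxidation 4 of 8 were called higher and 1 lower, and 3 were not called (24.5% of all probe sets called). CROT, the carnitine octanoyltransferase that passes shortened chains on to mitochondria, rose by 0.70 ± 0.06 (adjusted p = 6.8e-07, limma), PECR by 0.30 ± 0.06 and ACOX2 by 0.20 ± 0.04, while the transporter ABCD3 fell by 0.17 ± 0.05. CROT was higher under si-miR-20a than under si-miR-671 by 0.51 ± 0.08 over 0 and 30 min (adjusted p = 0.0028, limma) and by 0.50 ± 0.08 over 60 and 120 min (adjusted p = 0.0077, limma), the latter being times at which ACAT1 was at a like level in both. Of the regulators of fatty acid oxidation, 2 of 9 rose (PPARD, 0.36 ± 0.08, and PPARGC1B, 0.26 ± 0.05) and PPARGC1A fell (−0.32 ± 0.11), 3 of 9 in all beside the same 24.5%.

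Downstream of ACAT2, 6 of 15 genes of mevalonate and cholesterol synthesis rose and 3 fell under si-miR-20a (24.5% of all probe sets called), with a list median of 0.13 beside 0.01 over all probe sets. MSMO1 rose by 0.29 ± 0.05, MVD by 0.28 ± 0.05, CYP51A1 by 0.27 ± 0.04 and IDI1 by 0.22 ± 0.04 (largest adjusted p 0.0013, limma), whereas ACAT2 itself was at −0.10 ± 0.06. Of the sterol-regulated genes outside the pathway 2 of 6 rose, near that share, INSIG1 by 0.15 ± 0.04 and SREBF1 by 0.15 ± 0.05. EGF at 120 min, over control and si-miR-20a, raised 5 of the 15 synthesis genes and lowered 1 (9.59% of probe sets called), and HMGCS1, the synthase that uses the product of ACAT2, rose by 0.54 ± 0.07 (adjusted p = 0.00012, limma), while ACAT2 was at −0.11 ± 0.09. The sterol O-acyltransferases, also once named ACAT, are other genes: SOAT1 was −0.14 ± 0.04 under si-miR-20a (adjusted p = 0.034, limma), and SOAT2 was at 0.44 ± 0.16 (adjusted p = 0.053, limma).

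**Figure D5:**
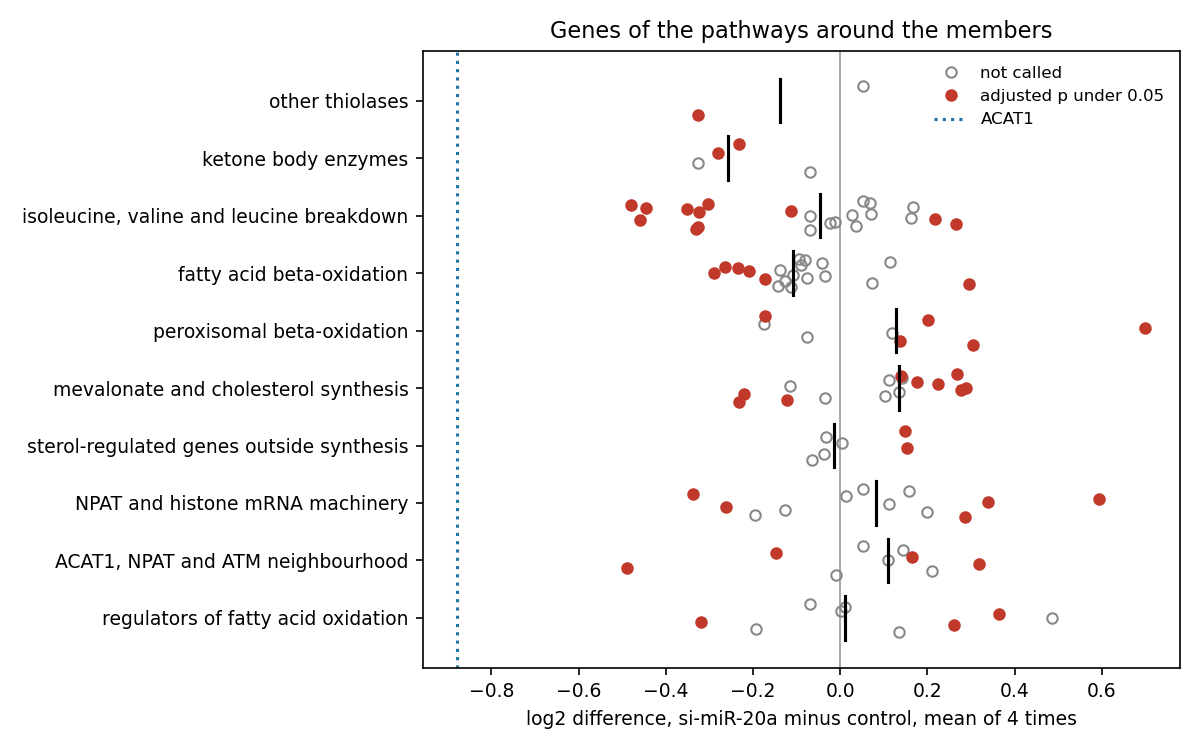
Log2 difference of si-miR-20a from control, averaged over the 4 times, for the genes of 10 lists around the members (filled circles adjusted p under 0.05, open circles not called, black bars list medians, dotted line ACAT1 at −0.88). The called genes of ketone body enzymes lie to the left of 0, as do 9 of 11 of branched-chain amino acid breakdown, and 4 of the 5 of peroxisomal beta-oxidation lie to the right.

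Around NPAT, 3 of 12 genes of its cyclin E, CDK2 and histone mRNA machinery rose under si-miR-20a and 2 fell, where 24.5% of all probe sets were called. CCNE2 rose by 0.59 ± 0.09 and CDK2 by 0.34 ± 0.07, the kinase pair that phosphorylates NPAT. CCNA2, the cyclin A of S phase, changed by −0.34 ± 0.05. HINFP, the histone H4 gene activator that NPAT works with, changed by −0.26 ± 0.07 (largest adjusted p of the 4 was 0.014, limma). Over 0 and 30 min of si-miR-20a alone, CCNA2 was the only gene of this list to pass. Over the later times CCNE2 was at 0.83 ± 0.12 and CDK2 at 0.49 ± 0.09 (adjusted p = 0.00031 and 0.0024, limma). CCNA2 passed there as well, and HINFP passed in neither part. Whether the earlier and later differences differ was not tested. Under si-miR-671 CCNE2 was higher in both parts, by 0.53 ± 0.12 and 0.84 ± 0.12. CDK2 passed in the later part only, at 0.47 ± 0.09 (adjusted p = 0.0032, limma). CCNA2 went the other way from its si-miR-20a difference. It was higher under si-miR-671 over 0 and 30 min, by 0.31 ± 0.07 (adjusted p = 0.025, limma), and did not pass over the later times. For si-miR-20a against si-miR-671 over 0 and 30 min, CCNA2 was at −0.65 ± 0.07 (adjusted p = 0.00023, limma). Along the chromosome, 2 of 9 genes near ACAT1, NPAT and ATM fell and 2 rose under si-miR-20a, beside the same 24.5%: POGLUT3 was −0.49 ± 0.06 and CUL5 −0.15 ± 0.05, and EXPH5 was 0.32 ± 0.08 and DDX10 0.17 ± 0.05. CUL5, the scaffold of a ubiquitin ligase and the neighbour on the other side of ACAT1, passed narrowly (adjusted p = 0.045, limma), at a size far from that of ACAT1. POGLUT3 was lower in both parts of si-miR-671, at −0.37 ± 0.08 and −0.64 ± 0.08. So POGLUT3, too, was below control at 0 and 30 min when ACAT1 was not. CUL5 passed in the later part of si-miR-671 only, lower as ACAT1 was, at −0.22 ± 0.07 (adjusted p = 0.045, limma). DDX10 also passed in that part only, but higher, at 0.27 ± 0.07 (adjusted p = 0.021, limma). For neither gene was a difference between the parts tested. The basal markers KRT14 and ITGB4 also passed higher under si-miR-20a, 2 of 4, as did 1 of 6 fibroblast (DCN) and 1 of 6 blood or endothelial markers (PECAM1). Of the luminal markers 0 of 6 passed. These counts stand against 24.5% of all probe sets, and the part of the markers in these results was not tested.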

How the data were processed

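RNA of 24 samples was measured on Affymetrix Human Gene 1.0 ST arrays. The authors deposited log2 values for 33297 probe sets, made with Affymetrix Expression Console per the submitters' processing notes; no source used here gives the summarisation, normalization or genome build, and the log base was read from the values. The table had 0 missing values and was used as deposited. Of the probe sets, 19460 had 1 gene symbol in the platform annotation (1754 had several and 12083 none) and were tested.

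limma 3.58.1 in R 4.3.3 fitted 1 mean per group over all 24 arrays, followed by eBayes (12 residual and 2.57 prior degrees of freedom, prior SD 0.136). A call was a Benjamini-Hochberg adjusted p under 0.05 over the 19460. Errors are model standard errors and intervals are 95%. The fit was tested on simulated data with known changes. Single times, 2 arrays against 2, rest on the pooled spread, since an exact permutation test there cannot go below 0.33. Tables used Python 3.11.15, pandas 2.3.3 and matplotlib 3.10.9. Over 66 pairs of groups, replicate differences correlated between −0.57 and 0.55 (median 0.063, 30 above 0.1), so replicate numbers were not taken to pair the samples. The main fit took the 24 arrays as independent. Whether arrays at different times came from the same transfection is not stated in the sources used here, and sharing of that kind was not modelled.

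The members, pathway lists and comparisons were chosen with earlier results of these data known. Named were all 6 members, ATM as the gene across the NPAT start, up to 4 genes of each list with the smallest adjusted p past the threshold, and the 5 genes most correlated with ACAT1 by each measure. miR-212, named in the protocol, had no sample and was not analysed here. The number of arrays limits the precision. The other settings were the replicate block, quantile normalization, a mean-variance trend, a filter on low values, all probe sets, the earlier or later times alone, leaving out si-miR-671, and leaving out each array. A further probe set per member was not tried, since each had 1.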

Additional observations from a re-analysis of the deposited data

Results flagged for a closer look

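The change of ACAT1 between 0 and 60 min of EGF differed by −0.90 (log2, si-miR-671 minus control). It was singled out because the time course differed between the transfections: both si-miR-671 arrays at 60 min were below both at 0 min (9.45 and 9.29 against 10.18 and 10.19), while control had 10.24 and 10.32 against 10.14 and 10.25. The values that show this are among those for which the gene was chosen, so the difference is a description. The later si-miR-671 arrays stood nearer to si-miR-20a over all probe sets as well, in 3 of 4 arrays, and whether that has a part in the ACAT1 values was not tested.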

How the results depend on the processing

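Adding the replicate block changed no call of a member; 3 members passed in si-miR-20a against control with it, as without. Quantile normalization and the filter on low values also left each of the 8 counts of members called as they were. The count for si-miR-20a against control was 1 with the earlier or the later times alone. For si-miR-671 against control it was 0 over the earlier times and 2 with the mean-variance trend (OXCT1 joined, adjusted p = 0.038, limma), and 1 to 2 when single arrays were left out (OXCT1 joined without either si-miR-20a 30 min array). For si-miR-20a against si-miR-671 it was 0 over the later times. At 60 min of EGF it was 0 without si-miR-671 and 0 with all probe sets, and 0 to 1 when single arrays were left out, with ACAT1 lost in 9 of 24 fits: without control 0 min replicate 2, either control or si-miR-20a array at 60 min, either si-miR-671 array at 0 min, si-miR-671 60 min replicate 2 or si-miR-20a 0 min replicate 1. At 120 min it was 0 without si-miR-671 and 1 to 2 when single arrays were left out (ACAT2 joined without control 120 min replicate 2).

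The sign turned for ACAT1 in si-miR-20a against si-miR-671 over the later times (0.025) and at 60 min of EGF without si-miR-671 (0.086). It also turned for differences that did not pass: over the earlier times for ACAT2 in si-miR-671 against control (0.055) and OXCT1 in si-miR-20a against control (−0.018), over the later times for HADHB in si-miR-20a against control (0.019), and in si-miR-20a against si-miR-671 for ACAT2 (0.026), HADHB (0.054) and OXCT1 (0.019). Leaving out single arrays gave −0.044 to 0.019 for ACAT1 at 30 min of EGF, and in si-miR-671 against control −0.063 to 0.025 for ACAT2 and −0.073 to 0.017 for HADHB. The causes were not tested.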
